A study of Homo sapiens with 18 samples.

Results

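The PIEZO family of mechanosensitive ion channels consists in human of PIEZO1 and PIEZO2, and both were among the 17017 gene symbols counted in MDA-MB-231 cells after knockdown of fibrillarin (FBL), the nucleolar methyltransferase of ribosomal RNA. The pair was chosen by RNA values: PIEZO2 was among the genes with the highest RNA rise shared by both hairpins in an earlier reading of these counts, and PIEZO1 is its only paralog. The contrast of each hairpin with the control therefore chose the pair, and in that contrast their values are given as a description without a test. MDA-MB-231 is an established line of triple-negative breast carcinoma. All cells had been transduced with lentiviral particles and selected with puromycin at 1 µg/ml for 96 h, the control (SC, read here as the scramble) as well as the 2 hairpin treatments against FBL (SH2 and SH3). All were also exposed to cycloheximide at 100 µg/ml for 5 min before lysis, to hold ribosomes in place. Cytoplasmic RNA (IN) and ribosome footprints (RPF) were each sequenced in 3 replicates per treatment, 18 libraries in 6 groups. The labels do not say which hairpin is knockdown 1 or 2, nor that replicates are separate cultures, so p-values measure only the spread between these samples.

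PIEZO proteins are very large membrane proteins that assemble as propeller-shaped trimers and open a calcium-permeable cation pore when the membrane is stretched or indented. PIEZO1 is best known from endothelium and red blood cells, and PIEZO2 from touch and proprioception, in Merkel cells and sensory neurons. Calcium that enters through such channels can act on calpains, on RhoA and actomyosin, and on calcineurin. In breast carcinoma lines PIEZO2 has been linked to RhoA and the actin cytoskeleton.

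The deposited counts summed to 23469830 to 27629488 per IN library and to 1662705 to 6098648 per RPF library. FBL fell from 388 ± 36.4 CPM (counts scaled to the TMM-adjusted library total) in SC IN libraries to 5.67 ± 5.09 under SH2 and 3.49 ± 0.612 under SH3 (SD, n = 3 each). The labelled line was checked on its markers. VIM, the mesenchymal intermediate filament, lay at 4081 to 7223 CPM, and the estrogen receptor gene ESR1 had at most 1 count in any IN library. Of the other luminal markers, PGR and CDH1 did not exceed 0.449 CPM. GATA3 (7.62 to 13.2 CPM) and EPCAM (4.92 to 9.15 CPM) were present at low levels. The 4 mesenchymal line markers (VIM, CD44, EGFR, AXL) summed to 6686 to 8558 CPM in SC, 8518 to 9574 under SH2 and 6470 to 7565 under SH3. Within this sum the markers moved apart. EGFR stood at 174 to 225 CPM in SC, 904 to 928 under SH2 and 581 to 646 under SH3. AXL stood at 1207 to 1787, 758 to 969 and 1202 to 1395 CPM. Of 7 markers of sensory neurons and Merkel cells, 6 were in the table. They summed to 0.122 to 0.330 CPM in SC, 0.142 to 0.414 under SH2 and 0.168 to 0.345 under SH3, and POU4F1 had 0 counts in every IN library. The 4 endothelial markers (PECAM1, CDH5, KDR, TEK) summed to 6.25 to 8.49 CPM in SC, 8.50 to 10.7 under SH2 and 10.3 to 11.2 under SH3. KDR stood at 3.62 to 5.35, 5.80 to 6.79 and 8.35 to 8.68 CPM, and PECAM1 at 2.08 to 3.46, 2.35 to 3.65 and 1.07 to 2.08 CPM. The part of the endothelial markers in the PIEZO1 values was not tested. In bulk RNA, fewer cells with a transcript and less transcript per cell cannot be told apart.

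The 2 genes lie on different chromosomes, PIEZO1 on chromosome 16 and PIEZO2 on chromosome 18, both read from the minus strand in RefSeq. The promoters are shown because the RNA of the 2 genes lay on opposite sides of SC in the hairpin libraries. The 250 bases before each annotated start are given 5′ to 3′ on the gene's strand, from RefSeq (GRCh38.p14), where both symbols matched an entry. They are chr16:88785221-88785470 for PIEZO1 and chr18:11149570-11149819 for PIEZO2. Capitals mark matches to the motifs searched.
PIEZO1: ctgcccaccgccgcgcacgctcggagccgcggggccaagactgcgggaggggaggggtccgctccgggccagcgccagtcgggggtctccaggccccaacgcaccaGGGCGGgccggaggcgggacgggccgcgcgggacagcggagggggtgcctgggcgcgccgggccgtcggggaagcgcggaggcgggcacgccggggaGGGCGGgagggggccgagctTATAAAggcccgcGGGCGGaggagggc
PIEZO2: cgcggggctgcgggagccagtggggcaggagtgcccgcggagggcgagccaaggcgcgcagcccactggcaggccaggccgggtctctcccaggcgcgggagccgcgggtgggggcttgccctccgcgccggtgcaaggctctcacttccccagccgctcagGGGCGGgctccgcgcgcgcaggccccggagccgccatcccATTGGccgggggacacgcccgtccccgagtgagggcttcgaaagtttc

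The motifs searched on both strands were the TATA box with the letters TATAAA, the CCAAT box with those letters, the GC box GGGCGG, the TEAD motif GGAATG and the AP-1 motif TGACTCA. PIEZO1 had TATAAA starting 27 bases before the start and GGGCGG at 144, 47 and 14 bases before it. PIEZO2 had no TATAAA, 1 CCAAT box on the opposite strand (read here as ATTGG) 48 bases before the start, and 1 GGGCGG at 88 bases. GGAATG and TGACTCA were in neither window. Of 27305 promoters of the same length, 11.1% held TATAAA, 33.0% CCAAT, 42.3% GGGCGG, 11.9% GGAATG and 4.16% TGACTCA. Both windows were rich in G and C, at 81.2% for PIEZO1 (higher than in 97.8% of promoters) and 76.8% for PIEZO2 (higher than in 92.9%). A letter match describes the window and says nothing on binding.

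PIEZO1 RNA was lower in both hairpin treatments than in SC. In SC replicates 1 to 3 PIEZO1 stood at 324, 243 and 280 CPM, in SH2 at 147, 148 and 183 CPM and in SH3 at 160, 136 and 141 CPM. All 6 hairpin libraries lay below all 3 SC libraries, while the SH2 and SH3 values overlapped. The share of all genes with SC and hairpin libraries apart in this way was not computed. Lack of overlap is therefore only a description, here and for PIEZO2, footprints and the shares below. The SH2 mean of 159 ± 20.8 CPM was 56.5% of the SC mean of 282 ± 40.7 CPM, and the SH3 mean of 146 ± 12.3 CPM was 51.6% of it (SD, n = 3 each). The fitted log2 change was -0.82 (SE 0.12) in SH2 and -0.96 (SE 0.12) in SH3, beside a median over all 12710 genes tested of 0.012 and 0.034. Each IN library held 3244 to 7938 PIEZO1 counts, so counting error was small beside the spread between replicates.

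PIEZO2 RNA was higher in both hairpin treatments. In SC it was a rare transcript, with 2.12, 4.24 and 3.86 CPM (52, 103 and 98 counts) in replicates 1 to 3. In SH2 it stood at 22.6, 29.3 and 24.9 CPM (576, 778 and 700 counts), and in SH3 at 31.0, 22.7 and 27.0 CPM (774, 541 and 705 counts). The lowest hairpin library was far above the highest SC library, and SH2 and SH3 overlapped. The SH2 mean of 25.6 ± 3.39 CPM was 7.51-fold and the SH3 mean of 26.9 ± 4.14 CPM was 7.89-fold the SC mean of 3.41 ± 1.13 CPM (SD, n = 3 each). The fitted log2 change was 2.91 (SE 0.21) in SH2 and 2.98 (SE 0.21) in SH3. Counted from the highest change, PIEZO2 ranked 29 in SH2 and 20 in SH3 of 12710 genes, which is the kind of value that led to its choice. Without SC replicate 1, the SC library with the least PIEZO2 RNA, the changes were 2.64 and 2.71.

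Over all genes tested, RNA was called higher with SH2 for 31.1% and lower for 30.4% (edgeR adjusted p under 0.05). With SH3 it was called higher for 27.8% and lower for 25.2%. A fall or a rise of RNA as such was thus common in these libraries, and nothing is read from the direction of the PIEZO genes alone.

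Footprints lay on the same side of SC as the RNA for each gene. PIEZO1 had 81.5, 149 and 127 CPM (502, 354 and 717 counts) in SC RPF replicates 1 to 3, against 33.7, 52.4 and 55.0 CPM in SH2 (91, 225 and 170 counts) and 37.5, 27.0 and 42.8 CPM in SH3 (64, 79 and 122 counts). No hairpin library reached an SC library, and SH2 and SH3 overlapped. Their means were 119 ± 34.5 CPM for SC, 47.1 ± 11.6 CPM for SH2, which is 39.4% of SC, and 35.8 ± 8.0 CPM for SH3 (SD, n = 3 each). The fitted log2 footprint change was -1.32 (SE 0.23) in SH2 and -1.73 (SE 0.24) in SH3. Counted from the lowest change, PIEZO1 ranked 537 in SH2 and 174 in SH3 of 10345 genes tested in footprints, and 1713 and 1059 of 12710 in RNA.

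PIEZO2 footprints were higher in both hairpins than in SC, where they rested on very few reads. SC RPF libraries held 25, 4 and 16 PIEZO2 counts (4.06, 1.69 and 2.84 CPM). SH2 libraries held 49, 109 and 78 counts (18.1, 25.4 and 25.3 CPM), and SH3 libraries 32, 58 and 55 counts (18.7, 19.9 and 19.3 CPM). SC did not overlap with either hairpin, and the SH3 values fell within the SH2 range. The SH2 mean of 22.9 ± 4.15 CPM was 8.02-fold and the SH3 mean of 19.3 ± 0.563 CPM 6.74-fold the SC mean of 2.86 ± 1.19 CPM (SD, n = 3 each). The fitted log2 footprint change was 2.88 (SE 0.27) in SH2 and 2.62 (SE 0.28) in SH3, ranks 22 and 19 from the highest of 10345. Among all genes tested, a footprint rise was called for 21.0% and a fall for 23.2% with SH2. With SH3 a rise was called for 16.9% and a fall for 19.0%. In the authors' deposited table, the log2 changes were -0.84 and -0.98 for PIEZO1 RNA and 2.89 and 2.96 for PIEZO2 RNA in SH2 and SH3. For footprints, the authors' deposited table gave -1.32 and -1.73 for PIEZO1 and 2.91 and 2.66 for PIEZO2.

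**Figure D1:**
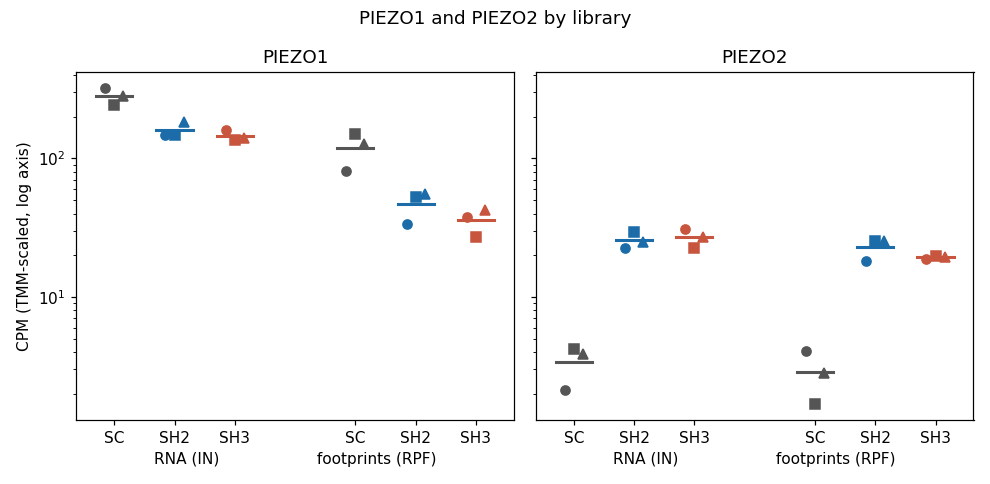
CPM (vertical log axis, TMM-scaled within each library kind) of PIEZO1 (left) and PIEZO2 (right) in each of the 18 libraries, by treatment, for RNA and footprints. Points are libraries (circle, square and triangle for replicates 1, 2 and 3) and lines are group means. SC lies above both hairpins for PIEZO1 and below both for PIEZO2, with no overlap, in RNA and in footprints. The share of all genes without overlap was not computed.

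The balance between the 2 channels shifted within each library. The share of PIEZO2 among PIEZO1 plus PIEZO2 counts needs no library scaling. The share and its change depend on the lengths of the genes, whereas the fold change of the ratio of PIEZO1 to PIEZO2 counts does not. In SC RNA, PIEZO2 took 0.651%, 1.72% and 1.36% of the PIEZO counts in replicates 1 to 3. It took 13.3%, 16.5% and 12.0% in SH2 and 16.3%, 14.3% and 16.1% in SH3. In footprints the shares were 4.74%, 1.12% and 2.18% in SC, 35.0%, 32.6% and 31.5% in SH2 and 33.3%, 42.3% and 31.1% in SH3. Every hairpin library was above every SC library of its kind, and the 2 hairpins overlapped. Put as a ratio, there were 57.2 to 153 PIEZO1 counts for each PIEZO2 count in SC RNA, 5.05 to 7.37 with SH2 and 5.15 to 6.0 with SH3.

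The footprint shares rest on few reads. The exact (Clopper-Pearson) 95% interval was 0.305% to 2.84% for SC replicate 2, with 4 PIEZO2 counts of 358, and 24.0% to 43.7% for SH3 replicate 1, with 32 of 96. These intervals cover counting error only, since reads without molecular identifiers are not independent molecules. Added together, PIEZO1 and PIEZO2 stood at 286 ± 39.6 CPM in SC RNA, 185 ± 20.6 CPM under SH2 and 172 ± 16.3 CPM under SH3, and at 122 ± 33.4, 70.0 ± 15.8 and 55.1 ± 7.64 CPM in footprints (SD, n = 3 each). The summed reads of the family were thus lower in both hairpins, with PIEZO1 the larger part of the counts in every library.

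**Figure D2:**
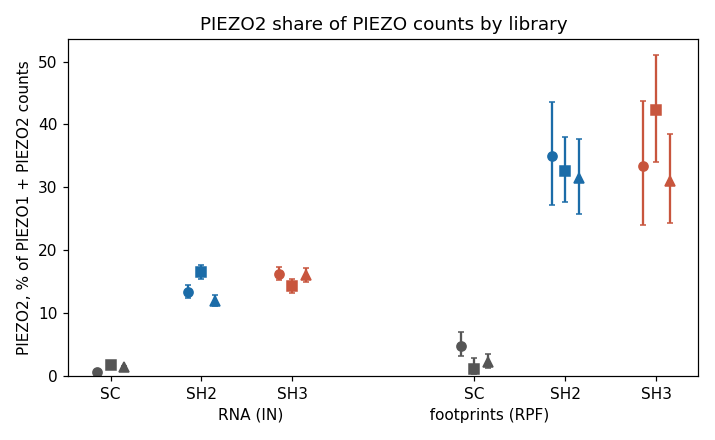
PIEZO2 counts as a percentage of PIEZO1 plus PIEZO2 counts (vertical axis) in each library, by treatment, for RNA and footprints. Points are libraries, with a marker shape for each replicate number, and bars are exact 95% intervals for counting error; SC lies at 0.651% to 4.74% and the hairpin libraries at 12.0% to 42.3%.

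Joined by replicate number, footprints per RNA, the measure of translational efficiency, did not separate the treatments for either gene. The ratios by library take IN and RPF libraries of the same replicate number together. The counts do not bear out this pairing for replicates 1 and 2 of SC and SH2. Over all genes, deviations from the group mean in SC correlated at r = -0.50 between IN 1 and RPF 1 and at -0.47 between IN 2 and RPF 2, but at 0.58 between IN 1 and RPF 2 and 0.47 between IN 2 and RPF 1. In SH2 the same 4 values were -0.31, -0.31, 0.57 and 0.50. Numbers 1 and 2 may be crossed between the IN and RPF libraries of SC and SH2, which was not tested. Ratios with them crossed were not computed. The overlap of treatments and the SD of the ratios below hold only for joining by number. No lack of separation as such is read from them. The fitted changes use no pairing by replicate number.

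With this limit, the log2 ratio of footprint CPM to RNA CPM by replicate number was -1.99, -0.70 and -1.14 for PIEZO1 in SC, -2.12, -1.50 and -1.74 in SH2 and -2.09, -2.33 and -1.72 in SH3. SC replicate 1 lay among the hairpin values, while SC replicates 2 and 3 lay above all of them. The group means were -1.28 ± 0.66 for SC, -1.79 ± 0.32 for SH2 and -2.05 ± 0.31 for SH3 (SD, n = 3 each). The fitted change in efficiency was -0.50 (SE 0.27) in SH2 and -0.76 (SE 0.28) in SH3 on the log2 scale. It was -0.81 (SE 0.24) and -1.08 (SE 0.25) without both SC replicate 1 libraries, and -0.24 and -0.50 without both SC replicate 2 libraries. In both cases the counts do not pair the 2 libraries left out, so this range carries the same limit.

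PIEZO1 had a low ratio among the genes in all 3 treatments. Its ratio of group means was above that of 16.5% of 10335 genes in SC, 9.12% in SH2 and 6.09% in SH3. The ratio sets 2 library kinds of the same gene against each other, so the order of genes does not rest on gene length in the way a level does.

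For PIEZO2 the same log2 ratio was 0.94, -1.33 and -0.44 in SC, -0.32, -0.20 and 0.02 in SH2 and -0.72, -0.19 and -0.49 in SH3. Joined by replicate number, the SC values spanned all of the hairpin values, and their spread carries the same limit on pairing. The fitted change was -0.039 (SE 0.37) in SH2 and -0.35 (SE 0.39) in SH3. Without both SC replicate 1 libraries, which the counts do not pair, the sign turned, to 0.57 (SE 0.39) and 0.26 (SE 0.40). No direction is therefore given. PIEZO2 lay in the middle of the genes, above 46.9% of them in SC, 50.6% in SH2 and 39.1% in SH3.

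The deposited table also holds a measure named RD for each hairpin. Its log2 values in the authors' deposited table were -0.77 for PIEZO1 and -0.33 for PIEZO2, the same under SH2 and SH3. The SH2 and SH3 RD values were identical in all 17017 rows of the authors' deposited table, and across genes they correlated at r = 0.982 with the SH3 change in footprints minus RNA and at r = 0.513 with that of SH2. They are therefore not used here as a result for SH2. Among all genes tested, efficiency was called changed for 3.90% in SH2 (489 genes) and 0.686% in SH3 (86 genes). With the replicate number as a block joining IN and RPF libraries, the counts were 191 and 23.

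**Figure D3:**
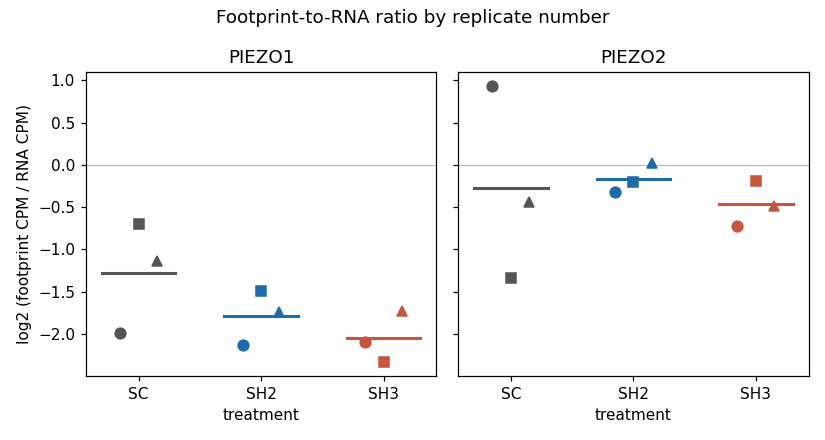
Log2 ratio of footprint CPM to RNA CPM (vertical axis) for PIEZO1 and PIEZO2 by treatment. Points are IN and RPF libraries joined by replicate number (circle, square and triangle for 1, 2 and 3), and lines are group means. The counts do not bear out this pairing for replicates 1 and 2 of SC and SH2. For PIEZO1, SC replicate 1 at -1.99 lies among the hairpin values, and for PIEZO2 the SC values run from -1.33 to 0.94.

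The 2 hairpins were compared with each other because that contrast was not itself used to choose the genes. PIEZO2 was chosen for a high RNA rise in both hairpins, which favours a small RNA difference between them. Its RNA test here is thus not independent of the choice. Neither PIEZO gene was called in RNA, footprints or efficiency. For PIEZO1 the log2 difference of SH2 minus SH3 was 0.13 in RNA (SE 0.12, 95% interval -0.17 to 0.43, edgeR adjusted p = 0.423). In footprints it was 0.41 (SE 0.25, interval -0.20 to 1.02, edgeR adjusted p = 0.251), and in efficiency 0.26 (SE 0.29, interval -0.37 to 0.89, edgeR adjusted p = 0.778). For PIEZO2 the difference was -0.072 in RNA (SE 0.18, interval -0.51 to 0.37, edgeR adjusted p = 0.780), 0.26 in footprints (SE 0.23, interval -0.30 to 0.81, edgeR adjusted p = 0.444) and 0.31 in efficiency (SE 0.30, interval -0.35 to 0.97, edgeR adjusted p = 0.743). The intervals allow a difference between hairpins of up to 1.02 on the log2 scale for PIEZO1 footprints, so a call that was missed does not show that the hairpins act alike. Across all genes tested, 39.3% were called between the hairpins in RNA, 23.8% in footprints and 0.0160% in efficiency. Over the alternatives run, the adjusted p lay between 0.112 and 0.976 for all 6 differences.

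Of the other mechanosensitive channels, 10 of 17 listed genes were expressed enough to be tested in RNA. With SH2, 5 were called higher and 3 lower, and with SH3 a rise was called for 4 and a fall for 1. Of all genes, 31.1% rose and 30.4% fell in RNA with SH2, and 27.8% rose and 25.2% fell with SH3, which is the background for each list that follows. In footprints that background is 21.0% and 23.2% with SH2, and 16.9% and 19.0% with SH3. The share of all genes called the same way in both hairpins was not computed. Counts of genes called in both therefore have no background here and are given as a description. The median log2 change was 0.27 in SH2 and 0.053 in SH3, against 0.012 and 0.034 over all genes. The 4 that rose in both hairpins were PANX1, a large-pore channel that releases ATP, LRRC8A, the obligatory subunit of the volume-regulated anion channel, TMEM63A, a stretch-activated channel of the OSCA family, and TMEM87A, a membrane protein reported in mechanically evoked currents.

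PANX1 RNA went up from 21.4 ± 3.8 CPM in SC libraries to 45.3 ± 3.0 with SH2 and 56.5 ± 3.4 with SH3 (SD, n = 3 each; log2 1.08 and 1.40, edgeR adjusted p = 5.29e-06 and 1.32e-06). The log2 footprint rise of PANX1 was 1.73 and 1.88. LRRC8A RNA rose by 1.22 and 1.11 and its footprints by 1.56 and 1.26. TMEM63A RNA rose by 1.2 and 0.88 and its footprints by 1.46 and 0.74. TMEM87A RNA rose by 1.19 and 1.01 and its footprints by 1.32 in SH2. In SH3 its footprint change was 0.70 (edgeR adjusted p = 0.0364), a call lost without SC replicate 1 (0.46) or 3 (0.67) and without SH3 replicate 1 (0.71), 2 (0.63) or 3 (0.78). The gene lower in both was TRPC1, a TRP-family cation channel, named here after its values were seen. Its RNA change was -0.41 (edgeR adjusted p = 0.0451) and -0.67 (edgeR adjusted p = 0.00426). Its footprint change was -0.064 in SH2 (edgeR adjusted p = 0.880) and -1.09 in SH3 (edgeR adjusted p = 0.0188). TRPC1 values under the alternatives are not given. In footprints, 9 of these channels were tested, with 4 calls up and 1 down for each hairpin, and the same 4 channels were higher in both. TRPV4, a channel of osmotic and shear responses, did not pass the filter, at no more than 0.453 CPM in any IN library.

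Partners and modulators of PIEZO channels include the auxiliary subunits MDFIC and MDFI, which bind the pore module and slow inactivation. MDFIC RNA dropped from 20.6 ± 3.5 CPM in SC libraries to 6.22 ± 1.2 with SH2 and to 10.0 ± 1.1 with SH3 (SD, n = 3 each), a log2 change of -1.72 (SE 0.17) and -1.03 (SE 0.17; edgeR adjusted p = 1.75e-06 and 0.000174). It was lower in SH2 than in SH3 by 0.69 (log2 difference -0.69, edgeR adjusted p = 0.00696). Its footprints fell in SH2 (log2 -1.39, edgeR adjusted p = 0.00597), a call lost when libraries were thinned to equal depth (-1.05), and stood at -0.17 (edgeR adjusted p = 0.728) in SH3. MDFI was barely present, at 0.202 CPM in SC and 0.439 and 0.440 CPM in the hairpins, with log2 changes of 1.12 and 1.10 that were not called (edgeR adjusted p = 0.185 and 0.213).

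Among the 8 partners tested in RNA, 2 were called higher and 1 lower in each hairpin, with a median of 0.17 in SH2 and -0.085 in SH3. Those called higher were FLNA, an actin crosslinker reported to bind and restrain PIEZO1, at 0.46 and 0.54, and ATP2A2, the endoplasmic reticulum calcium pump reported to suppress PIEZO1, at 0.45 and 0.30. The SH3 call of ATP2A2 was lost without SC replicate 3 (0.26) and without SH3 replicate 1 (0.24) or 3 (0.27). In footprints, 1 of 6 was called higher and 1 lower in SH2, and 1 was called higher in SH3. FLNA was higher in both, at 0.40 and 0.53, although the SH2 call was lost without SC replicate 1 (0.33) and without SH2 replicate 2 (0.32) or 3 (0.37).

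The route from calcium to RhoA and actin held 24 genes, all tested. In RNA, SH2 gave 9 calls up and 7 down, SH3 gave 9 up and 3 down, and 6 genes rose and 3 fell in both. The median log2 RNA change was 0.12 in SH2 and 0.16 in SH3. LIMK1, the kinase that inactivates cofilin, rose in RNA by 1.75 and 1.85, from 44.2 ± 6.1 CPM to 149 ± 15 and 159 ± 2.1 CPM (SD, n = 3 each; edgeR adjusted p = 3.79e-08 and 8.16e-08). Its footprints rose by 0.65 in SH2 (edgeR adjusted p = 0.0468) and 1.06 in SH3, and its efficiency change in SH2 was -1.13 (edgeR adjusted p = 0.0207). That efficiency call was lost with the replicate block (-1.10, edgeR adjusted p = 0.0794), with only the compared groups (-1.13), with thinning (-0.93), without SC replicate 1 (-0.61) and without SH2 replicate 1 (-1.19), 2 (-1.13) or 3 (-1.09). The SH2 footprint call was lost under 11 of 17 alternatives, among them leaving out SC replicate 2 (0.50) or 3 (0.49).

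The 2 nonmuscle myosin II heavy chains moved apart. MYH9 RNA rose by 1.22 and 1.05 and its footprints by 0.96 and 1.2, whereas MYH10 RNA fell by 1.33 and 0.78 and its footprints by 1.43 and 0.60. The SH3 footprint call of MYH10 was lost without SC replicate 3 (-0.53). ARHGEF2, a RhoA activator bound to microtubules, rose in RNA by 0.95 and 0.54 and in footprints by 0.88 and 0.90. RHOA itself was not called, with RNA changes of 0.10 and -0.22 (edgeR adjusted p = 0.340 and 0.0558). In footprints of the 24 genes, SH2 gave 8 calls up and 5 down and SH3 gave 7 up and 2 down.

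Of 24 genes of calcium stores, calmodulin and calcineurin, 9 were called up and 8 down in RNA with SH2, and 6 up and 6 down with SH3, with medians of 0.13 and -0.014. ATP2B1, a plasma membrane calcium pump, rose in RNA by 1.57 and 0.82, and in footprints by 1.54 in SH2, with 0.57 in SH3 (edgeR adjusted p = 0.0509). The SH3 footprint change was called under 11 of 17 alternatives, among them the replicate block (0.57, edgeR adjusted p = 0.00634). ITPR3, a receptor that releases stored calcium, rose in RNA by 1.17 and 0.99 and in footprints by 0.76 and 0.79. PPP3CB, a catalytic subunit of calcineurin, fell in RNA by 0.76 and 0.46 and in footprints by 0.72 and 0.85. PPP3R1, the regulatory subunit, rose in RNA by 0.41 and 0.76; the SH2 call was lost without SC replicate 1 (0.34) or 3 (0.40) and without SH2 replicate 1 (0.33).

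PPP3R1 footprints were at -0.90 in SH2 (edgeR adjusted p = 0.0482), a call lost in 8 alternatives and at -0.25 without SC replicate 1, and at 0.27 in SH3 (edgeR adjusted p = 0.566). In footprints, 22 genes of this list were tested, with 6 calls up and 6 down for SH2 and 1 up and 6 down for SH3. ITPR1, another store-release receptor, was the gene called in opposite directions, with footprint changes of 0.65 in SH2 and -0.64 in SH3.

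Over all 4 lists, 25 of 66 genes rose and 19 fell in RNA with SH2 (66.7% called), and 21 rose and 11 fell with SH3 (48.5%). In footprints 19 of 61 rose and 13 fell with SH2, beside 21.0% and 23.2% of all genes, and 13 rose and 9 fell with SH3, beside 16.9% and 19.0%. Between the hairpins, 26 of the 66 genes (39.4%) differed in RNA, near the 39.3% of all genes. In translational efficiency 3 of 65 genes were called in SH2, all lower, beside 3.90% of all genes. With the replicate block, which carries the pairing limit given above, it was 0 of 65, beside 191 genes in all. LIMK1 and CALM3 (-0.64), a calmodulin gene, were among the 3. The CALM3 call was lost with the block, with only the compared groups, without SC replicate 1 (-0.58) or 3 (-0.64), without SH2 replicate 1 (-0.59) or 3 (-0.57) and without SH3 replicate 3 (-0.64). In SH3, 0 of 65 were called by edgeR, beside 0.686% of all genes, and 1 by DESeq2, where all genes were not counted. An unadjusted p under 0.05 was found for 12 of 65 genes in SH2, beside 17.9% of all genes, and for 12 of 65 in SH3, beside 12.6%.

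**Figure D4:**
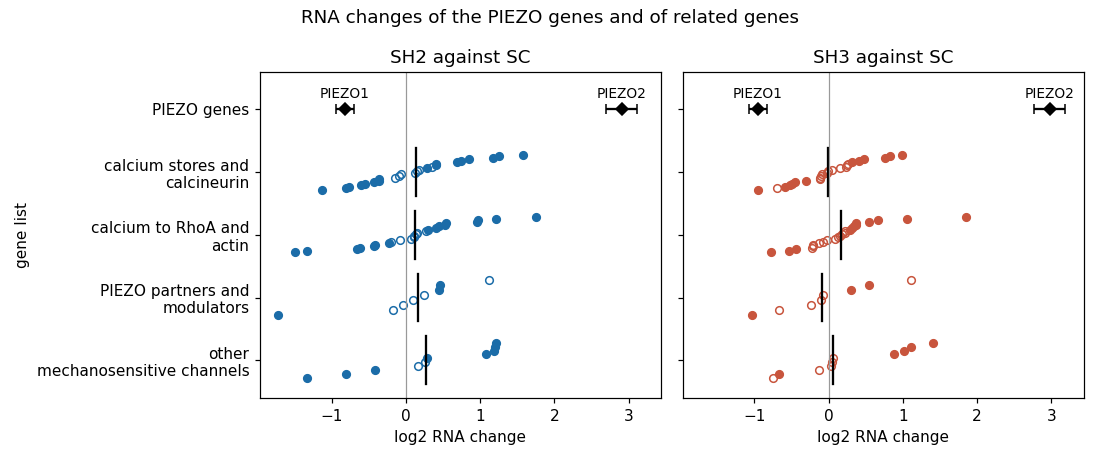
Log2 RNA change (horizontal axis) of PIEZO1 and PIEZO2 (diamonds with SE) and of the tested genes of 4 related lists, for SH2 and SH3 against SC. Filled circles were called by edgeR at adjusted p under 0.05, open circles were not, and black lines are list medians. Genes within a list are sorted by their change. PIEZO2, at 2.91 and 2.98, was chosen for a high RNA rise in both hairpins. Its place above the listed genes is therefore not a result.

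At the PIEZO1 locus, CTU2, a gene of tRNA wobble-base thiolation that overlaps PIEZO1 in RefSeq, did not follow it down. Its RNA change was 0.33 in SH2 (edgeR adjusted p = 0.0253) and 0.23 in SH3 (edgeR adjusted p = 0.114). The SH2 call was lost without SC replicate 2 (0.23), without SH2 replicate 1 (0.31) or 3 (0.23), and with only the compared groups in the fit (0.31). The labels do not say whether counting used strand, so reads in the overlap cannot be assigned with certainty. PIEZO1 also has the pseudogenes PIEZO1P1 and PIEZO1P2, and how reads shared with them were counted is not given in the sources used here. The next genes present in the table were SNAI3, which did not pass the filter, RNF166 at 0.39 and 0.71, CDT1, the replication licensing factor, at -1.02 and -0.91, and APRT at 0.23 (edgeR adjusted p = 0.0966) and 0.41. The SH2 call of RNF166 was lost without SC replicate 1 (0.27), SH2 replicate 1 (0.39) or 3 (0.29) or SH3 replicate 3 (0.37), and the SH3 call of APRT without SH3 replicate 2 (0.27).

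At the PIEZO2 locus no tested neighbour was called higher in both hairpins, except NAPG with plain library totals. NAPG, of membrane fusion, was at 0.40 in SH2 (edgeR adjusted p = 0.00162) and 0.17 in SH3 (edgeR adjusted p = 0.132; 0.26 and 0.0340 with plain totals), and APCDD1 did not pass the filter. GNAL, which encodes a G protein alpha subunit, fell by 1.85 and 1.53 from 2.08 ± 0.72 CPM to 0.571 ± 0.13 and 0.715 ± 0.24 CPM (SD, n = 3 each; edgeR adjusted p = 0.000273 and 0.00135). CHMP1B was at 0.18 (edgeR adjusted p = 0.134) and -0.27 (edgeR adjusted p = 0.0380), the latter a call lost without SC replicate 1 (-0.22) or 3 (-0.29), without SH3 replicate 1 (-0.30) or 3 (-0.28), with plain totals (-0.18) and with no filter (-0.26).

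Genes whose profile was most like that of each PIEZO gene were ranked by Pearson's r over the 18 libraries, among 10334 other genes, on log2 CPM with each library kind centred on its own mean. The points share libraries and treatments, so r is a description. For PIEZO1 the highest r belonged to ABCA2 (0.963), a lipid transporter, TMEM18 (0.960), SLC44A2 (0.950), a choline transporter, and ACTR1B (0.950), of the dynactin complex. ABCA2 RNA stood at 99.3 CPM in SC, 50.9 under SH2 and 49.8 under SH3. SLC44A2 RNA stood at 227, 110 and 98.2 CPM.

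For PIEZO2 the highest r belonged to TRIB2 (0.985), a pseudokinase, SORCS2 (0.977), a sorting receptor, BIN1 (0.977), a membrane-bending protein, PLCD3 (0.975), a phospholipase C, and MXD1 (0.975), a partner of MAX. BIN1 RNA stood at 17.8 CPM in SC, 106 under SH2 and 101 under SH3, and MXD1 RNA at 3.82, 18.8 and 16.6 CPM. The libraries fall into SC and hairpin clusters, so a high r says that a gene differed between the same groups as the PIEZO gene, and no relation within a group is read from it.

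**Figure D5:**
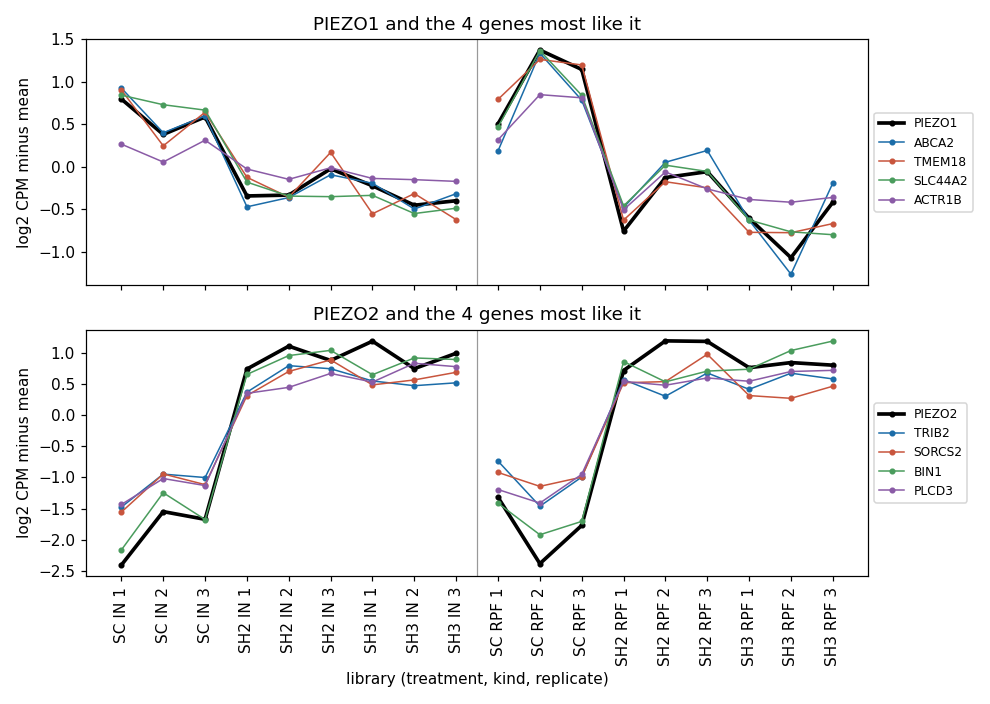
Log2 of CPM plus 0.5, minus the mean over the 9 libraries of a kind (vertical axis), for PIEZO1 (top) and PIEZO2 (bottom) in black and the 4 genes most like each in colour, across the 18 libraries. Lines join libraries only to guide the eye. RNA is left of the vertical line and footprints right. The SC libraries lie above all hairpin libraries for each gene of the upper plot, except ABCA2 footprints (26.1 CPM in SC replicate 1, 26.2 CPM in SH2 replicate 3), and below them for each gene of the lower plot. The coloured genes were picked by likeness over these same libraries, which favours such a separation.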

How the data were processed

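A single table of 18 libraries was used, and the members and gene lists were chosen with earlier results of these data known. The count columns hold raw read counts per gene as deposited by the authors. The authors' normalized signal columns are the counts divided by 1 size factor per library, and the log2 fold changes and p-values are the authors' deposited comparisons. The submitters' processing notes name Bowtie 1.2.2 and DESeq2. Counting, annotation and build are not given in the sources used here, so no coordinates are given for the data. Here, counts were tested with edgeR 4.0.16 in R 4.3.3 (filterByExpr, TMM, quasi-likelihood, two-sided, Benjamini-Hochberg over all genes tested). All 9 IN libraries shared 1 fit, all 9 RPF libraries another, and the 18 together gave efficiency as an interaction. Called means an adjusted p under 0.05. This tested 12710 genes in RNA, 10345 in footprints and 12531 in efficiency. Intervals for SH2 minus SH3 use the SE on the residual degrees of freedom. On simulated counts with 200 genes changed 4-fold in SH2 against SC, edgeR recovered 200 in RNA (12610 genes), 200 in footprints (10219) and 190 in efficiency (12423). It also made 12, 10 and 9 false calls. The changed genes were drawn only from those above a minimum mean count, and all genes had the same spread. The simulation therefore says little on genes with few counts. Within a library kind, the replicate numbers paired SC with SH2, from the counts and not the labels: same-numbered libraries deviated together at r of 0.345 to 0.373 in IN and 0.252 to 0.300 in RPF. In IN, SH3 went with SC and SH2 for replicates 1 and 3 (r of 0.240 to 0.474) but not for replicate 2 (-0.131 and 0.0051). In RPF it did so for replicate 3 alone (0.262 and 0.318). Between IN and RPF, same-numbered libraries went together in SH3 (0.209 to 0.430) and for replicate 3 of SC (0.267) and SH2 (0.509). Replicates 1 and 2 of SC and SH2 did not. Replicates differed beyond counting noise (chi-square per degree of freedom 3.38 to 56.3). Depth ran from 1662705 to 27629488 counts per library, and precision was lowest for PIEZO2 footprints in SC.

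The named genes were the PIEZO genes, FBL, MDFIC, MDFI, from each of 4 lists the up to 4 genes with the largest mean RNA change among those called with the same sign in both hairpins, the nearest genes in RefSeq order (GRCh38.p14, names only) and the 5 genes most like each PIEZO gene. ITPR1, RHOA, TRPC1, TRPV4 and CALM3 fall outside this rule and were named after their values were seen. Some genes that the rule or a count would name are not reported here. Alternatives were DESeq2 size factors, plain totals, no filter, DESeq2 1.42.0, only the compared groups, a replicate block, a larger prior count, thinning to equal depth, a threshold of 0.01, and leaving out each replicate.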

Additional observations from a re-analysis of the deposited data

How the results depend on the processing

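All PIEZO1 and PIEZO2 changes against SC in RNA and footprints kept their direction under all 17 alternatives, within -0.96 to -0.73 (SH2) and -1.07 to -0.86 (SH3) for PIEZO1 RNA, and 2.64 to 3.09 and 2.71 to 3.16 for PIEZO2 RNA. With plain library totals the median RNA change of all genes moved to 0.105 in SH2 and 0.121 in SH3. The PIEZO2 RNA difference of SH2 minus SH3 ran from -0.165 to 0.064 when 1 replicate was left out, with 0.0096 without SH2 replicate 1. PIEZO2 efficiency turned to 0.50 in SH2 and 0.17 in SH3 with thinned libraries, and ran from -0.38 to 0.57 in SH2 (0.010 without SH2 replicate 1) and from -0.69 to 0.26 in SH3 when 1 replicate was left out. The cause was not tested. List genes called numbered 21 instead of 32 in SH2 footprints at the threshold of 0.01. All genes called were counted only in the main fit and with the replicate block. List counts under the other alternatives, here and next, thus have no background and are a description. For SH2 efficiency, 3 became 5 with DESeq2, 0 with only the compared groups, with the replicate block and at 0.01, 1 with thinning, and 0 to 4 when 1 replicate was left out; for SH3 it was 1 with DESeq2. MDFIC footprints in SH3 ran from -0.48 to 0.12, and PPP3R1 footprints in SH3 from -0.013 to 0.92, when 1 replicate was left out. Among single named genes, 81 values lost a call, 17 gained one and 1989 kept their side.

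Same-numbered libraries with SH3 in the pair deviated together at r of -0.13 to 0.47 in IN and -0.12 to 0.32 in RPF. The numbers thus pair SH3 with the other treatments only in part, for replicate 3 in both kinds and replicate 1 in IN. With the number as a block, no RNA or footprint call of a named gene in SH2 changed, and the PIEZO2 RNA changes were 2.91 and 3.0 and the PIEZO1 RNA changes -0.82 and -0.95. The share of PIEZO2 per coding length was not run. PIEZO2 efficiency rests on 4 to 25 footprint counts per SC library.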
